A study of Mus musculus with 12 samples.

Results

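Heat shock proteins and their DnaJ partners were followed across the hypothalamus of mice that drank water or alcohol from adolescence on. Every array probe whose gene symbol belonged to the Hsp90, Hspa, Hspb, Hspd, Hspe, Hsph, Dnaja, Dnajb or Dnajc families was taken, which gave 142 of 41174 probes and 74 of 27827 gene names. The choice rested on symbols alone, and it took in Hspbap1 and Hspbp1, cofactors that bind heat shock proteins. Each gene was read on its brightest probe by the mean over all arrays. In this set 31 genes had 1 probe, and no gene had more than 4.

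RNA came from the hypothalamus of male ICR mice, an outbred strain, and was hybridized in Cy3 alone to 12 Agilent whole mouse genome arrays. The water group of 9 mice made up 3 pools, and 19 alcohol mice made up 9 pools of 1 to 3 mice, labeled as 3 low, 3 early high and 3 late high alcohol drinkers. All mice entered at 3 weeks of age and had water in both tubes on days 1 to 5, after which the alcohol mice chose freely between water and alcohol at 5% or 10%. The labels put sacrifice at day 51, and the series text has drinking last to day 57. A pool mixes mice, so p-values measure the spread between pools and not between mice, and the labels do not carry the names of the alcohol pools. In the pooling scheme the pools of lesser consumption held 3 mice each, and the pools of 1 mouse were among those of greater consumption. In tissue RNA, fewer cells of a type and less RNA per cell cannot be told apart.

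Heat shock proteins are chaperones, which bind unfolded stretches of other proteins and help them fold, move or be broken down. HSP70 proteins work in cycles of ATP use that J proteins, the DnaJ family, set going, while HSP90 finishes the folding of receptors and kinases, HSP60 with its HSP10 lid folds proteins inside mitochondria, and small heat shock proteins hold damaged proteins until HSP70 takes over. Under protein stress, heat shock factor 1 switches on a part of the family through heat shock elements in promoters. Another part answers to stress of the endoplasmic reticulum.

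Of the 3 slides, each with 4 arrays, slide 1 carried all water pools together with pool 1 of the low drinkers. On slide 2 were pools 2 and 3 of the low drinkers beside pools 1 and 2 of the early high drinkers. On slide 3, pool 3 of the early high drinkers lay beside every late high drinker pool. Slide 1 was scanned on 1 day and slides 2 and 3 on another. No slide held water pools together with early or late high drinker pools, so with slide as a block early high drinkers reach water only through low drinker pool 1, and late high drinkers only through that pool and early high drinker pool 3. Levels below are log2 intensities minus the 75th percentile of their array, which lay between 1512 and 1853 intensity units. Between 67.0% and 79.3% of spots were well above background, and 0 were saturated. Probes differ in how strongly they bind, so levels are compared between arrays and never between genes. Of 13 hypothalamic neuron markers on the array, 11 were well above background on every array and Otp on none. The summed level of 5 anterior pituitary markers, in multiples of the 75th percentile, ran from 3.25 to 12.4 in the water, from 6.90 to 9.40 in the low, from 0.911 to 3.37 in the early high and from 3.93 to 6.44 in the late high drinker pools. Low drinker pool 2 stood apart, with the highest of the 12 values for 28.2% of all probes.

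The hypothalamus carried nearly the whole family. Of the 74 genes, 68 were well above background on all 12 arrays. The exceptions were Dnajb13 on 10 arrays, Hspa1l on 9, Dnajc22 on 5, Dnajc5g on 3, Dnajc5b on 2 and Dnajb7 on 0. In all 72 genes could be tested, and Dnajb7 and Dnajc5b had too few values.

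The clearest pattern among the members lay in 1 pool rather than in a group. Of the 69 members with a value on every array, 24 had their highest value in late high drinker pool 1, which is 34.8%, while over all 29521 such probes that array held the highest value for 9.52%. All 4 heat-inducible cytosolic chaperones were among them, as were 7 of 19 constitutive cytosolic chaperones and partners, 5 of 10 members of the endoplasmic reticulum, 3 of 9 small heat shock proteins with Hspbap1, 2 of 3 synaptic and endocytic J proteins and 3 of 16 other members. Of the 8 mitochondrial members, 0 were. With quantile normalization the count was 22 of 69 members (31.9%) beside 12.8% of all probes. Set only against the other 3 arrays of slide 3, this pool was highest for 28 of 69 members (40.6%) and for 22.0% of all probes. The pattern was seen in these data and carries no test.

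**Figure D1:**
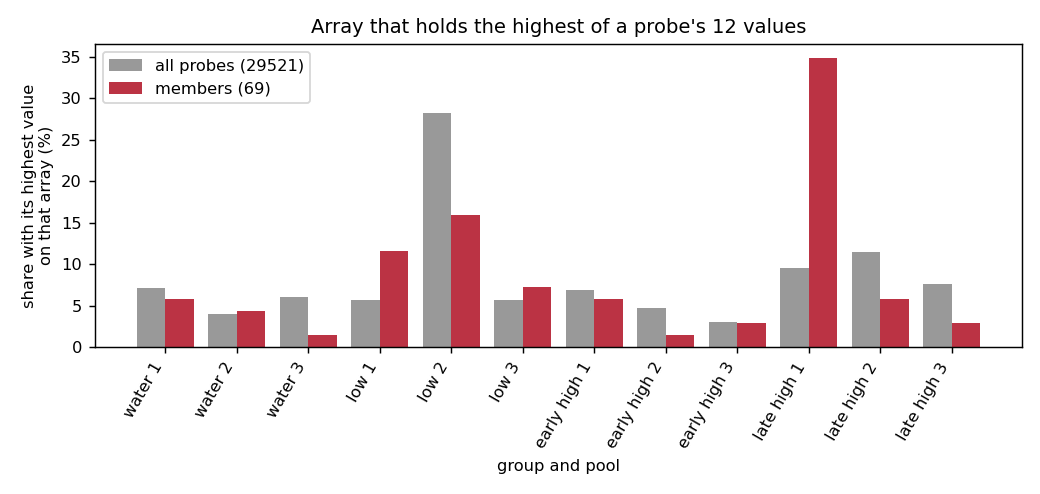
Share of probes (percent, y axis, from 0) whose highest of 12 values lay on each array (x axis, group and pool). Grey bars give all 29521 probes with a value on every array and red bars the 69 members. The red bar of late high drinker pool 1 reaches 34.8% beside a grey bar of 9.52%, and the tallest grey bar, 28.2%, is that of low drinker pool 2.

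The promoters of Hspa1a, Hspa1b and Hspb1 are shown because these genes stood furthest above the median of the other arrays in that pool, a choice that says nothing of how the element goes with the pool. Hspa1a and Hspa1b encode inducible HSP70, and Hspb1 encodes HSP27. Each sequence is the 150 bases before the start of transcription in the RefSeq table of GRCm38.p6, 5′ to 3′ on the strand of the gene. Capitals mark the 2-unit heat shock element, read as GAANNTTC or TTCNNGAA.
Hspa1a, chr17:34972157-34972306, minus strand: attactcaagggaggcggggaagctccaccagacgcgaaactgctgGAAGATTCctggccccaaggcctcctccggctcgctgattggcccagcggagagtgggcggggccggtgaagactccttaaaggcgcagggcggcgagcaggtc
Hspa1b, chr17:34959239-34959388, minus strand: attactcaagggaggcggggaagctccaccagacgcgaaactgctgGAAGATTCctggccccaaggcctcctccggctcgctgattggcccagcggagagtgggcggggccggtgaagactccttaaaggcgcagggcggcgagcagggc
Hspb1, chr5:135887769-135887918, plus strand: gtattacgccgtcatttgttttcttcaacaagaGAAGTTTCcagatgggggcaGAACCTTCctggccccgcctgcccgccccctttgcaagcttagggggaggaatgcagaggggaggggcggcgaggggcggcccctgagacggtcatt

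The windows of Hspa1a and Hspa1b matched at 149 of 150 bases and carried the element at the same place, 104 bases before the start. Hspb1 had it 117 and 97 bases before the start. Over windows of 250 bases before to 50 after a start, 17.0% of all 27025 gene symbols held a 2-unit element on either strand in at least 1 window, and 16 of the 60 members with a window did. A 3-unit element, in which either 2-unit form is followed after 2 bases by its first 3 letters again and which thus holds 2-unit matches within it, was in 0.662% of all symbols and in 4 members, Hspd1, Hspe1, Hsph1 and Dnajb6. Of the members with a window and a value on every array, 5 of 15 with a 2-unit element (33.3%: Dnaja4, Hspa1a, Hspa1b, Hspb1 and Hsph1) and 14 of 43 without one (32.6%) were highest in late high drinker pool 1. Of the 4 with a 3-unit element, Hsph1 was highest there and Hspd1, Hspe1 and Dnajb6 were not, while the windows of Dnajb1, also highest there, held no match. A match describes the letters of the window only, and the reference is of another strain than ICR.

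Hspa1a stood at 0.70, 0.64 and 0.55 in the water pools, 0.62, 0.50 and 0.84 in the low, 0.26, 0.83 and 0.64 in the early high and 1.497, 0.52 and 0.59 in the late high drinker pools (probe at chr17:35106766-35106825, mm9). Late high drinker pool 1 was 1.83-fold above the median of the other 11 arrays, which ran from 0.26 to 0.84 with all groups overlapping. The other Hspa1a probe shares part of its sequence with this one and read 1.54 in that pool. Hspa1b stood at -1.78, -1.75 and -1.78 in the water pools, -1.72, -1.71 and -1.51 in the low, -1.92, -1.62 and -1.74 in the early high and -0.98, -1.89 and -1.95 in the late high drinker pools (probe at chr17:35094200-35094259, mm9). The same pool was alone at the top, 1.70-fold above the median of the rest. The dimmer Hspa1b probe did not follow, with -3.88 in that pool and its highest value, -3.004, in low drinker pool 2. Hspa1a and Hspa1b are near-identical genes, so how much signal their probes share is uncertain.

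Hsph1, the HSP110 that helps HSP70 swap its nucleotide, stood at 4.70, 4.56 and 4.54 in the water pools, 4.56, 4.62 and 4.75 in the low, 4.55, 4.62 and 4.64 in the early high and 4.86, 4.51 and 4.54 in the late high drinker pools. Dnajb1, the J protein of inducible HSP70, was at 3.92 in late high drinker pool 1 and between 3.35 and 3.75 in the other 11. Hspb1 was at 1.04 there and between 0.12 and 0.83 elsewhere. The same pool led in each, by 1.23-fold for Hsph1, 1.25-fold for Dnajb1 and 1.64-fold for Hspb1 over the median of the rest. For all 5 of these genes the next highest pool was low drinker pool 3.

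**Figure D2:**
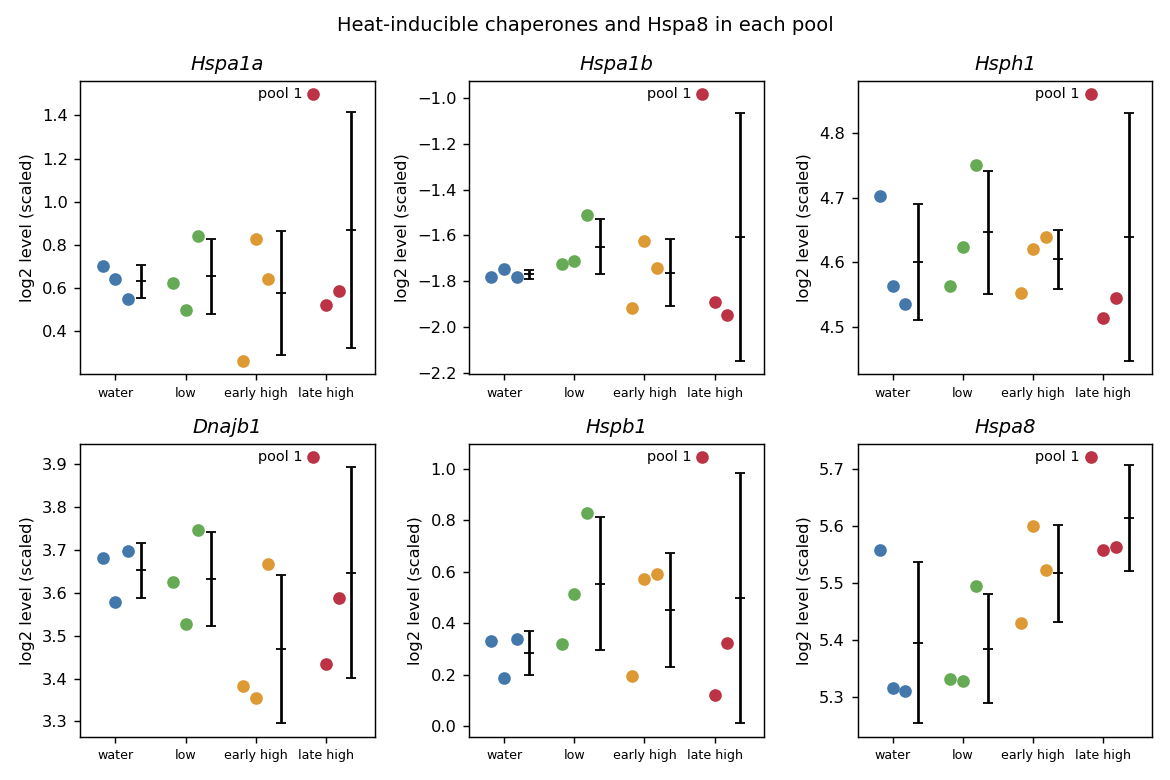
Scaled log2 level (y axis) of 5 heat-inducible chaperones and Hspa8 in each of the 12 pools (points), by group (x axis, 3 pools each), with the mean and SD of each group as a black bar. Late high drinker pool 1 is the highest point of every panel, at 1.497 for Hspa1a where the other 11 pools reach 0.84.

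Genes outside these symbol families that work with the chaperones were read as a list of heat shock factors and cytosolic cochaperones. Of the 24 with a value on every array, 10 (41.7%) were highest in late high drinker pool 1, beside 9.52% of all probes. Serpinh1, the collagen chaperone HSP47, was 1.47-fold above the median of the other 11 arrays, Fkbp4, an HSP90 partner of steroid receptors, 1.36-fold, Cryab, a small heat shock protein, 1.34-fold, and St13, an HSP70 cochaperone, 1.25-fold. Chordc1, Ahsa1, Ahsa2, Stip1, Ptges3 and Cdc37 made up the rest. Bag3, another heat shock gene, was at 0.29 in that pool and highest, at 0.33, in low drinker pool 2. Hsf1 itself was at 3.93 there, below all water pools.

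The other folding lists were counted in the same way, to be read beside the 9.52% of all probes. Of TRiC and prefoldin genes 1 of 13 was highest in that pool, of mitochondrial folding genes 0 of 8, and of endoplasmic reticulum folding genes 4 of 21, namely Pdia4, Pdia6, P4hb and Sdf2l1. Among cell type markers, 6 of 12 hypothalamic neuron genes (Ghrh, Hcrt, Npy, Sim1, Sst and Trh) were highest there, as were 1 of 5 of endothelium, 1 of 4 of ependyma, 1 of 3 of anterior pituitary and 0 of choroid plexus, blood, smooth muscle, microglia and astrocytes. The array had 76.5% of spots well above background and a 75th percentile of 1840 intensity units, both inside the range of the other arrays. The part of tissue makeup in the pattern was not tested. Of the 20 other probes of the 24 members with a value on every array, 9 were also highest in that pool.

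**Figure D3:**
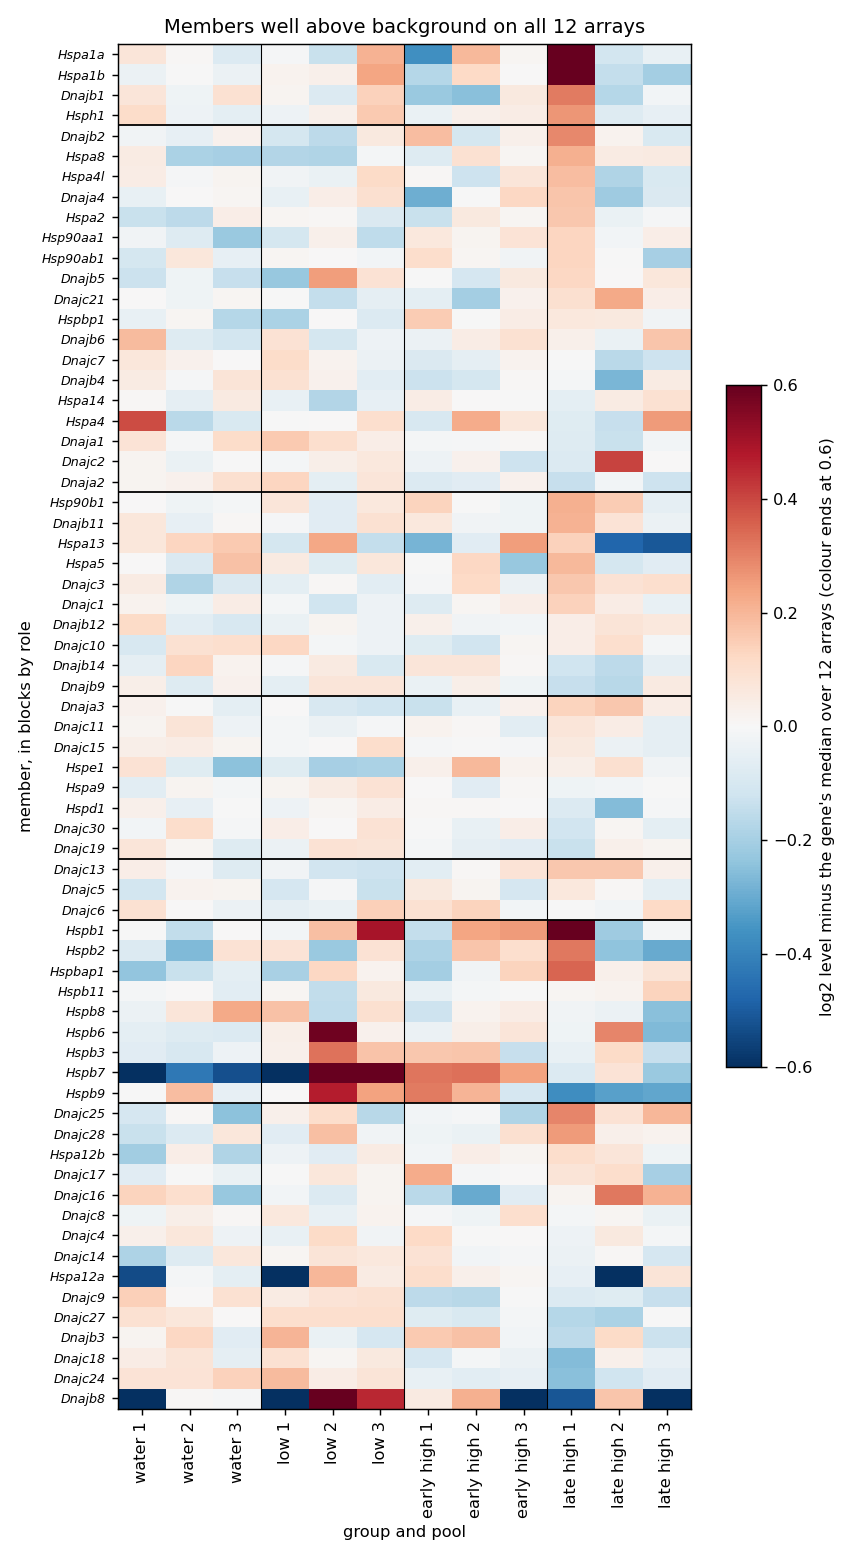
Log2 level minus the gene's median over the 12 arrays (colour, ending at 0.6 either way) for the 67 members well above background with a value on every array (rows), by pool (columns). Horizontal lines part the roles, from the top: inducible cytosolic chaperones, constitutive cytosolic chaperones and partners, endoplasmic reticulum, mitochondria, synapse and endocytosis, small heat shock proteins, and other members. The column of late high drinker pool 1 is red through the first block and at the top of the next, and Hspb7 is red in low drinker pools 2 and 3.

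Alcohol against water was the main comparison of the study, and no member passed it. With limma over 32376 probes, 0 of the 72 members tested reached an adjusted p under 0.05, and 0% of all probes did. At an unadjusted p under 0.05, 1 member passed (1.39%) beside 5.53% of all probes. With the methods' t-test, run on these values, 1 member passed before and 0 after adjustment, beside 5.21% and 0% of all probes. The member was higher, as were 3.85% of all probes, while 0 members and 1.68% of all probes were lower. Among 48 cell type markers tested, 2 were higher and 0 lower at an unadjusted p under 0.05, and their part in the members' differences was not tested. They belonged to ependyma and motile cilia (Ccdc153 higher, list median 0.088, from -0.055 to 0.13) and astrocytes (Aldoc higher, list median 0.016, from -0.020 to 0.18). The median log2 difference of the members was 0.022, beside 0.027 over all probes tested. For 63 of the 72 members the 95% interval of the difference lay within 0.5 on the log2 scale either way, and for 68 within 1.

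The member past the unadjusted threshold was Hspa12b, a distant HSP70 known from endothelium. It stood at -0.35, -0.10 and -0.32 in the water pools and between -0.21 and -0.035 in the 9 alcohol pools, with a median of -0.13. The groups overlapped through water pool 2. The difference was 0.13 (SE 0.059, adjusted p = 0.819 with limma), and an exact permutation of the labels over its 220 splits gave p = 0.0318, two-sided, where the smallest p it allows is 0.00455. With any 1 of the 6 high drinker pools left out, 0 members passed the unadjusted threshold, beside 4.53% to 5.20% of all probes.

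The inducible chaperones did not separate the groups. Hspa1a was 0.63 ± 0.076 (SD, n = 3) in the water pools. In the alcohol pools it was 0.70 ± 0.35 (SD, n = 9), a difference of 0.068 with a 95% interval of -0.36 to 0.49. For Hspa1b the difference was 0.097 (-0.27 to 0.46), for Hsph1 0.029 (-0.13 to 0.19), for Dnajb1 -0.070 (-0.30 to 0.16) and for Hspb1 0.21 (-0.16 to 0.59). All 5 intervals span 0.

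Among the constitutive cytosolic chaperones, Hsp90aa1, the stress-responsive HSP90, stood at 6.35, 6.30 and 6.15 in the water pools and between 6.22 and 6.50 in the alcohol pools (median 6.40), a difference of 0.12 (-0.027 to 0.26). Hsp90ab1, the steady HSP90 of the cytosol, differed by 0.033 (-0.11 to 0.18). Hspa8, the constitutive HSP70 that also strips clathrin from vesicles, stood at 5.56, 5.32 and 5.31 in the water pools and between 5.33 and 5.72 in the alcohol pools, a difference of 0.11 (-0.079 to 0.30). Water pool 1 lay inside the alcohol range, and the dimmer Hspa8 probe gave a difference of -0.071. Hspa2 and Hspa4, of the HSP70 and HSP110 kind, gave 0.083 (-0.059 to 0.22) and -0.0078 (-0.26 to 0.25). The HSP70 cofactor Hspbp1 gave 0.071 (-0.079 to 0.22), and the J proteins Dnaja1 and Dnaja4 gave -0.056 (-0.19 to 0.077) and -0.014 (-0.21 to 0.19).

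In the endoplasmic reticulum, Hspa5, the HSP70 known as BiP and a standard sign of stress there, stood at 4.91, 4.82 and 5.08 in the water pools and between 4.68 and 5.10 in the alcohol pools. The water range lay inside the alcohol range, and the difference was -0.034 (-0.22 to 0.16). Hsp90b1, or GRP94, stood between 4.96 and 4.99 in water and between 4.91 and 5.20 in alcohol pools, a difference of 0.065 (-0.076 to 0.21). Dnajb9, a J partner of BiP, differed by -0.016 (-0.15 to 0.12) and Dnajc3, which restrains the stress kinase PERK, by 0.11 (-0.036 to 0.25).

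The promoters of Hspa5 and Hsp90b1 are shown because these genes are read as reporters of this stress. Capitals mark the ER stress element, CCAAT and CCACG parted by 9 bases, on either strand.
Hspa5, chr2:34771940-34772089, plus strand, 150 bases before the start in GRCm38.p6: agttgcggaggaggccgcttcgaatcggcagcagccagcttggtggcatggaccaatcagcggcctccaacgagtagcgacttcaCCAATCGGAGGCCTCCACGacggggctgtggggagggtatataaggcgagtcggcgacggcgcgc
Hsp90b1, chr10:86705445-86705694, minus strand, 250 bases before the start in GRCm38.p6: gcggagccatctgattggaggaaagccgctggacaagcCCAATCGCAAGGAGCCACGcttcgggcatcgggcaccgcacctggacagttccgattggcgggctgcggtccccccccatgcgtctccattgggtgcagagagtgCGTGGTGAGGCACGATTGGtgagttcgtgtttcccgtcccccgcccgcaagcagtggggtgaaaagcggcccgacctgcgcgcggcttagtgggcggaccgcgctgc

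The element lay 65 bases before the start of Hspa5 and 212 and 107 bases before that of Hsp90b1. It was in 0.137% of all symbols and in 3 of 60 members, the third being Dnajc3. All 3 were highest in late high drinker pool 1, as were 34.8% of the members and 9.52% of all probes. Of the 21 other genes listed for endoplasmic reticulum folding, 4 were. That pool was singled out in these data, so the counts carry no test. In late high drinker pool 1 Hspa5 read 5.10, Hsp90b1 5.20 and Dnajc3 1.02. They stood 1.15-fold, 1.16-fold and 1.12-fold above the median of the other 11 arrays.

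The SD over the 12 arrays of the 8 mitochondrial members ran from 0.043 for Hspa9, the mitochondrial HSP70, to 0.13 for Hspe1, the HSP10 lid. Hspa9 lay between 3.84 and 3.999 on every array, and alcohol and water differed by 0.025 (-0.068 to 0.12). Hspd1, the HSP60 barrel, differed by -0.028 (-0.16 to 0.11) and Hspe1 by 0.065 (-0.13 to 0.26). At the synapse, Dnajc5, the cysteine string protein of synaptic vesicles, differed by -0.0036 (-0.13 to 0.12) and Dnajc6, the auxilin that uncoats vesicles, by 0.021 (-0.11 to 0.15).

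**Figure D4:**
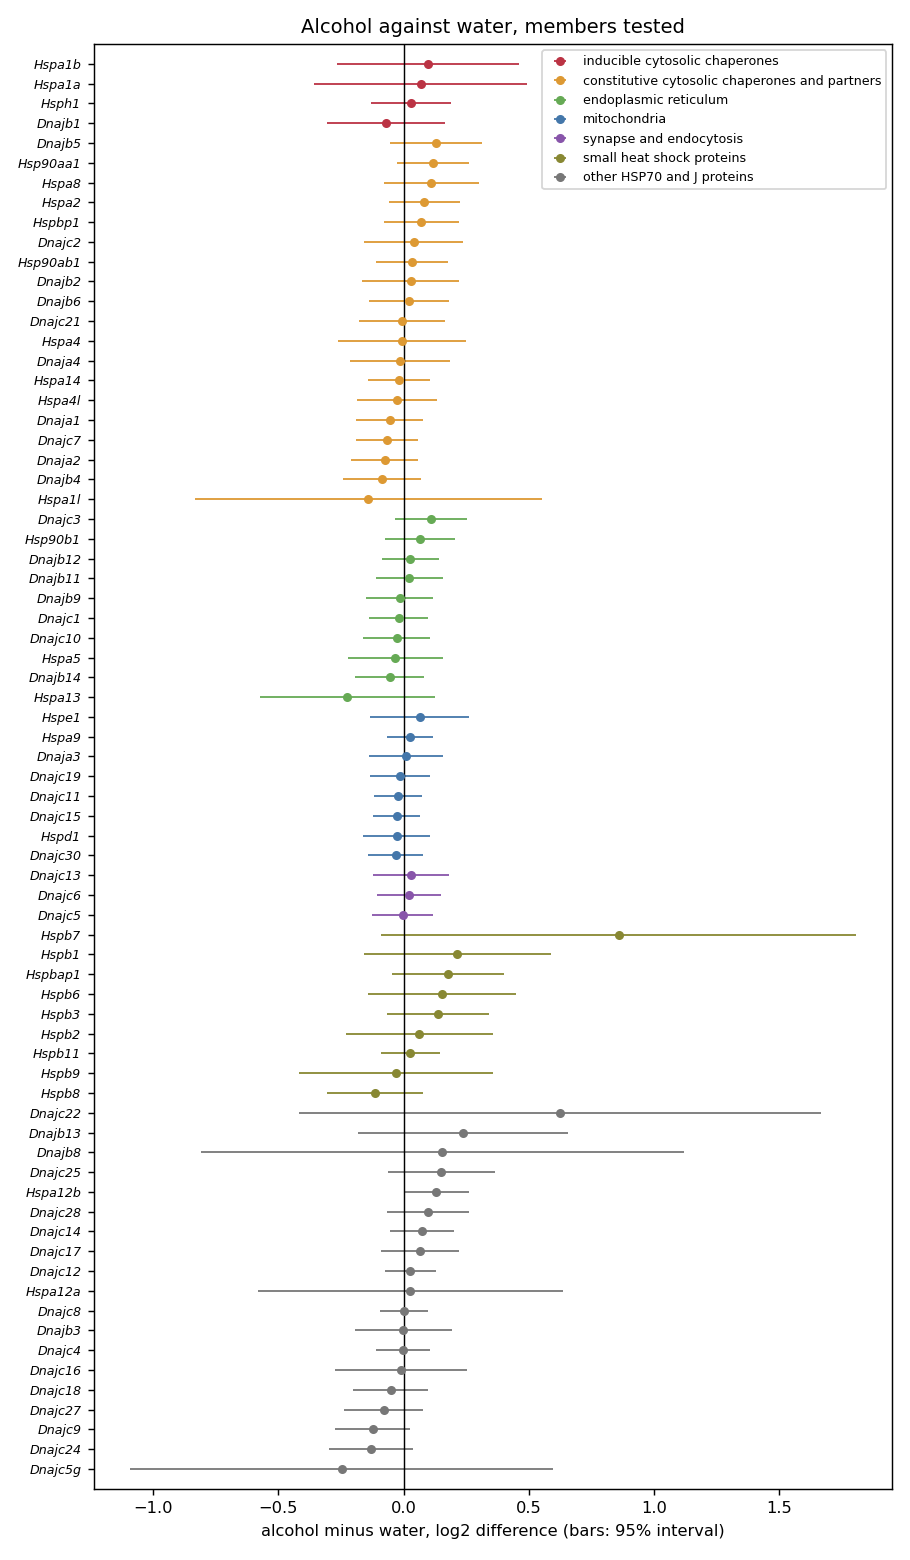
Alcohol minus water in log2 units (x axis) for the 72 members tested (y axis), as points with 95% intervals from limma, coloured by role. Intervals of 63 members lie within 0.5 of 0. Hspa12b is the member whose interval clears 0, at 0.0022 to 0.26, and the widest intervals belong to Dnajc22, Dnajb8, Hspb7 and Dnajc5g.

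Small heat shock proteins are best known from muscle, glia and vessels. Hspb7 had the largest difference between alcohol and water among the members tested, 0.86 (-0.091 to 1.81, adjusted p = 0.819 with limma). It was the dimmest small heat shock protein among those well above background on every array. It stood at -5.68, -5.50 and -5.60 in the water pools, -5.74, -3.04 and -4.06 in the low, -4.75, -4.74 and -4.83 in the early high and -5.15, -4.99 and -5.29 in the late high drinker pools. Low drinker pools 2 and 3, both on slide 2, were highest, while low drinker pool 1, on the slide of the water pools, was lowest of all. On slide 1 that pool differed from the mean of the water pools by -0.15. Hspb11 differed between alcohol and water by 0.026 (-0.092 to 0.14), and Hspbap1, a partner of HSP27, by 0.18 (-0.045 to 0.40). The dim testis gene Dnajb8 gave 0.15 (-0.81 to 1.12).

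The 4 groups were then compared in 1 fit over 31622 probes. By limma's F test 0 of 72 members had an adjusted p under 0.05, beside 0.00632% of all probes, and 7 (9.72%) had an unadjusted p under 0.05, beside 14.4%. They were Dnajc24, Hspb9, Dnajc9, Dnajc27, Hspa1l, Dnajc25 and Dnaja1, and their smallest adjusted p was 0.201.

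Late high drinkers against water had 11 of 72 members past the unadjusted threshold (15.3%), close to the 15.9% of all probes. After adjustment 0 members passed with limma, as did 0% of all probes. Higher in late high drinkers were Dnajc25, Dnajc3, Hspa12b, Hspa8 and Hspbap1, 5 of 72 where 6.97% of all probes were. Lower were Dnaja1, Dnajc24, Dnajc27, Dnajc9, Hspa1l and Hspb9, 6 of 72 where 8.94% were. With slide as a fixed block the count was 4, beside 7.77% of all probes, and with slide as a random block 6, beside 10.9%. It was 6 without late high drinker pool 1, water pool 2 or water pool 3, beside 12.4%, 11.3% and 11.7% of all probes. Among 48 cell type markers tested, 2 were higher and 8 lower at an unadjusted p under 0.05, and their part in the members' differences was not tested. They belonged to hypothalamic neurons (Trh higher, list median 0.13, from -0.32 to 0.37), anterior pituitary (Lhb and Prl lower, list median -0.62, from -3.71 to 0.16) and choroid plexus (Clic6 and Kcne2 lower, list median -0.38, from -1.21 to -0.13). Others were of blood (Alas2, Hba-a1 and Hbb-b1 lower, list median -0.49, from -0.71 to -0.48), endothelium (Slco1a4 lower, list median -0.011, from -0.22 to 0.11) and astrocytes (Aldoc higher, list median 0.14, from 0.025 to 0.21). The median difference of the members was 0.018, beside 0.0048 over all probes.

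Dnajc24, a J protein of the diphthamide pathway, stood at -0.58, -0.58 and -0.52 in the water pools, -0.47, -0.61 and -0.58 in the low, -0.70, -0.72 and -0.71 in the early high and -0.91, -0.78 and -0.73 in the late high drinker pools (probe at chr2:105842124-105842183, mm9). On this probe, the brightest, all 6 high drinker pools lay below all 6 water and low drinker pools. The next probe, also well above background on every array, gave 0.13 for early and -0.080 for late high drinkers against water, neither past the unadjusted threshold. On the brightest probe the difference of late high drinkers from water was -0.25 (SE 0.062, adjusted p = 0.129 with limma), the smallest adjusted p of any member. Within slide 2 early high minus low drinkers was -0.12, and within slide 3 late minus early high drinkers was -0.096.

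Dnajc27, a J protein joined to a Rab-like GTPase, stood at 2.35, 2.33 and 2.26 in the water pools, 2.36, 2.37 and 2.36 in the low, 2.19, 2.17 and 2.25 in the early high and 2.09, 2.07 and 2.26 in the late high drinker pools. Dnajc9, a J protein that also handles histones, stood at 2.44, 2.30 and 2.39 in the water pools, 2.35, 2.38 and 2.39 in the low, 2.14, 2.13 and 2.30 in the early high and 2.22, 2.23 and 2.16 in the late high drinker pools. On the brightest probe of both genes too, all 6 high drinker pools lay below all water and low drinker pools, by a hair at water pool 3 for Dnajc27 and at water pool 2 for Dnajc9. The dimmer Dnajc9 probe went the other way between late high drinkers and water, with a difference of 0.24 where the brighter gave -0.18, both past the unadjusted threshold.

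Dnaja1, a main J partner of Hspa8, stood at 3.91, 3.82 and 3.94 in the water and 3.75, 3.69 and 3.81 in the late high drinker pools, a difference of -0.14. Hspa8 itself stood at 5.72, 5.56 and 5.56 in late high drinkers, a difference of 0.22, while its dimmer probe gave -0.12. On the brighter probe of either gene late high drinkers did not overlap water, though for Hspa8 water pool 1 all but touched late high drinker pool 2. Dnajc25 stood at -1.73, -1.62 and -1.88 in the water and -1.34, -1.54 and -1.43 in the late high drinker pools, also without overlap. Hspb9, a small heat shock protein known from testis, stood at -2.23, -2.04 and -2.28 in the water and -2.60, -2.55 and -2.54 in the late high drinker pools. On the slide of the latter, early high drinker pool 3 read -2.33, while the other early high drinker pools read -1.91 and -2.02. The dim Hspa1l stood between -5.16 and -4.74 in water and between -5.78 and -5.56 in late high drinker pools.

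In low drinkers against water 0 of 72 members passed with limma, beside 0.218% of all probes, and 2 had an unadjusted p under 0.05, Hspb3 and Hspb7 (2.78% beside 9.08%). Both were higher, as were 8.33% of all probes, and 0 members and 0.749% of all probes were lower. Among 48 cell type markers tested, 3 were higher and 0 lower at an unadjusted p under 0.05, and their part in the members' differences was not tested. They belonged to vascular smooth muscle (Cnn1 and Myh11 higher, list median 0.45, from -0.16 to 0.78) and endothelium (Pecam1 higher, list median 0.0016, from -0.12 to 0.47). The summed level of the smooth muscle markers, in multiples of the 75th percentile, ran from 7.19 to 7.59 in the water and from 6.61 to 8.45 in the low drinker pools. Cnn1 was highest in low drinker pool 1, the pool in which Hspb7 was lowest. Hspb7 gave the highest difference, 1.31 (SE 0.51), and Hspa13, an HSP70 of the endoplasmic reticulum, the lowest, -0.12 (SE 0.19). In early high drinkers against water 0 passed, beside 0%, and 2 had an unadjusted p under 0.05, Dnajc24 and Dnajc9 (2.78% beside 4.7%). Both were lower, as were 1.9% of all probes, and 0 members and 2.8% of all probes were higher. Another probe of each gene went the other way, by 0.13 for Dnajc24 and 0.15 for Dnajc9. Among 48 cell type markers tested, 1 were higher and 4 lower at an unadjusted p under 0.05, and their part in the members' differences was not tested. They belonged to anterior pituitary (Cga, Lhb, Prl and Tshb lower, list median -1.23, from -4.41 to -0.40) and astrocytes (Aldoc higher, list median -0.041, from -0.070 to 0.20). With slide as a fixed block 7 members were past the unadjusted threshold, beside 6.94% of all probes, and with water pool 1 left out there were 6, beside 4.29%. In the fit without a block Dnajc9 was lowest at -0.19 and Hspb7 highest at 0.82. Among members well above background on all 12 arrays, late high drinkers against water had Hspa13 lowest at -0.40 (SE 0.19) and Hspb7, itself dim, highest at 0.45. Of the members not well above background on every array, Dnajc5g and Hspa1l gave -0.85 and -0.63 and Dnajc22 0.45. Hspa13 read 2.73, 2.11 and 2.08 in the late high drinker pools and between 2.66 and 2.75 in water, so pool 1 lay with the water pools. Over the 4 Hspa13 probes this difference ran from -0.63 to 0.062.

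In early and late high drinkers together against low drinkers 0 of 72 members passed with limma, beside 0.0221% of all probes, and 9 had an unadjusted p under 0.05 (12.5% beside 14.7%). Dnajc13, Hspa8 and Hspe1 were higher in high drinkers, 3 of 72 where 3.4% of all probes were, and Dnaja1, Dnajc24, Dnajc27, Dnajc9, Hspa1l and Hspb9 lower, 6 of 72 where 11.3% were. Other probes of Dnaja1, Dnajc9 and Hspa8 went the other way, by 0.022, 0.065 and -0.067. Among 48 cell type markers tested, 2 were higher and 8 lower at an unadjusted p under 0.05, and their part in the members' differences was not tested. They belonged to hypothalamic neurons (Trh higher, list median 0.10, from -0.56 to 0.24), anterior pituitary (Cga, Gh, Lhb, Prl and Tshb lower, list median -1.42, from -2.67 to -0.53) and choroid plexus (Clic6 lower, list median -0.32, from -1.29 to -0.14). Others were of vascular smooth muscle (Acta2 higher and Myh11 lower, list median -0.31, from -0.44 to 0.21) and endothelium (Slco1a4 lower, list median -0.049, from -0.29 to 0.091). Hspe1 gave the highest difference, 0.21 (SE 0.077, adjusted p = 0.276 with limma), with 3.54, 3.38 and 3.20 in the water pools, 3.37, 3.25 and 3.26 in the low, 3.48, 3.64 and 3.47 in the early high and 3.48, 3.54 and 3.43 in the late high drinker pools. All 6 high drinker pools lay above all 3 low drinker pools, while the water pools spanned both. Hspb7, itself dim, gave the lowest among members well above background on all 12 arrays, -0.68 (SE 0.44). Hspa1l, not well above background on every array, gave -0.74.

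In late against early high drinkers 0 of 72 members passed with limma, beside 0% of all probes, and 6 had an unadjusted p under 0.05 (8.33% beside 12.4%). Dnaja3, Dnajc16, Dnajc21 and Dnajc25 were higher in late high drinkers, 4 of 72 where 4.37% of all probes were, and Dnajb14 and Hspb9 lower, 2 of 72 where 8.04% were. The other Dnaja3 probe gave -0.032. Among 48 cell type markers tested, 5 were higher and 2 lower at an unadjusted p under 0.05, and their part in the members' differences was not tested. They belonged to hypothalamic neurons (Sim1 higher, list median 0.050, from -0.21 to 0.57), anterior pituitary (Cga and Tshb higher, list median 0.70, from -0.21 to 1.76) and choroid plexus (Clic6 lower, list median -0.033, from -0.23 to 0.71). Others were of blood (Hba-a1 lower, list median -0.40, from -0.53 to -0.33) and astrocytes (Gja1 and Slc1a3 higher, list median 0.095, from 0.0080 to 0.22). Dnajc16 gave the highest difference, 0.36 (SE 0.11), and Hspb9 the lowest among members well above background on all 12 arrays, -0.47 (SE 0.13). The dimmer Dnajc5g and Hspa1l gave -0.77 and -0.49. The 3 dimmer Dnajc16 probes gave 0.14, -0.25 and -0.60. These contrasts share pools and are not independent.

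Leaving out low drinker pool 1, which keeps low drinkers on slide 2 alone, took 2 of 71 members past the adjusted threshold against water (Dnajc22 and Hspb7), where 8.09% of all probes passed. In high against low drinkers it took 4 (those with Hspa1l and Hspb9) beside 7.35% of all probes. With low drinker pool 2 left out, 0 members passed either.

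The wider folding network gave no adjusted call in any comparison with limma. For alcohol against water, at an unadjusted p under 0.05, 1 of 25 heat shock factors and cochaperones passed (Hsf1, lower), 1 of 13 TRiC and prefoldin genes (Pfdn1, higher), 2 of 21 genes of endoplasmic reticulum folding (Atf6 higher, Creld2 lower), 0 of 8 of mitochondrial folding and 0 of 4 J proteins and HSP70 kin outside the symbol families. The median differences of these lists were 0.0083, -0.050, -0.040, -0.0059 and -0.020. Hsf1, which switches on the heat shock response, stood at 4.17, 4.30 and 4.10 in the water pools, 4.19, 4.08 and 3.94 in the low, 4.12, 4.03 and 3.98 in the early high and 3.93, 3.73 and 3.74 in the late high drinker pools. The late high drinker pools lay below all water pools, and on their slide early high drinker pool 3 was close above them. For late high drinkers against water, where 15.9% of all probes passed the unadjusted threshold, the lists had 2 of 25, 5 of 13, 3 of 21, 1 of 8 and 0 of 4 genes past it.

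Chaperones known to work or be regulated together were paired over the 12 arrays, in 8 pairs. Hspa1a and Hspa1b gave r = 0.939 (permutation p = 0.000260, adjusted p = 0.00208) and rho = 0.692 (permutation p = 0.0154, adjusted p = 0.0617). These genes are near-identical, so how far shared probe signal makes up this r is uncertain. The dimmer Hspa1b probe was not highest in late high drinker pool 1. Hspa1b and Hsph1 gave r = 0.875 (permutation p = 0.000590, adjusted p = 0.00236) and rho = 0.790 (permutation p = 0.00321, adjusted p = 0.0257). Hspa1b and Dnajb1 gave r = 0.668 (permutation p = 0.0169, adjusted p = 0.0450) and rho = 0.350 (permutation p = 0.265, adjusted p = 0.423). Without the 2 arrays farthest from the median of the gene named first, late high drinker pool 1 among them each time, r was 0.724, 0.513 and 0.0563, with permutation p = 0.0166, 0.130 and 0.873 before adjustment. After adjustment 0 of the 8 pairs had a permutation p under 0.05, so all 3 calls needed those arrays. Without late high drinker pool 1 alone, r over 11 arrays was 0.752, 0.725 and 0.326. With slide means removed r was 0.959, 0.873 and 0.767.

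The other pairs did not pass. Hspa8 and Hsp90aa1 gave r = 0.605 (permutation p = 0.0371, adjusted p = 0.0742) and rho = 0.573 (permutation p = 0.0559, adjusted p = 0.149). Hspd1 and Hspe1 gave r = -0.310 (permutation p = 0.349, adjusted p = 0.465) and rho = -0.168 (permutation p = 0.604, adjusted p = 0.690). These last share a promoter region. Hspa5 and Hsp90b1 gave r = 0.365 (permutation p = 0.244, adjusted p = 0.391) and rho = 0.392 (permutation p = 0.211, adjusted p = 0.422). Hsp90aa1 and Hsp90ab1 gave r = 0.231 (permutation p = 0.470, adjusted p = 0.538) and rho = 0.294 (permutation p = 0.351, adjusted p = 0.467). Hspa5 and Dnajb9 gave r = 0.0626 (permutation p = 0.846, adjusted p = 0.846) and rho = 0.126 (permutation p = 0.699, adjusted p = 0.699).

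**Figure D5:**
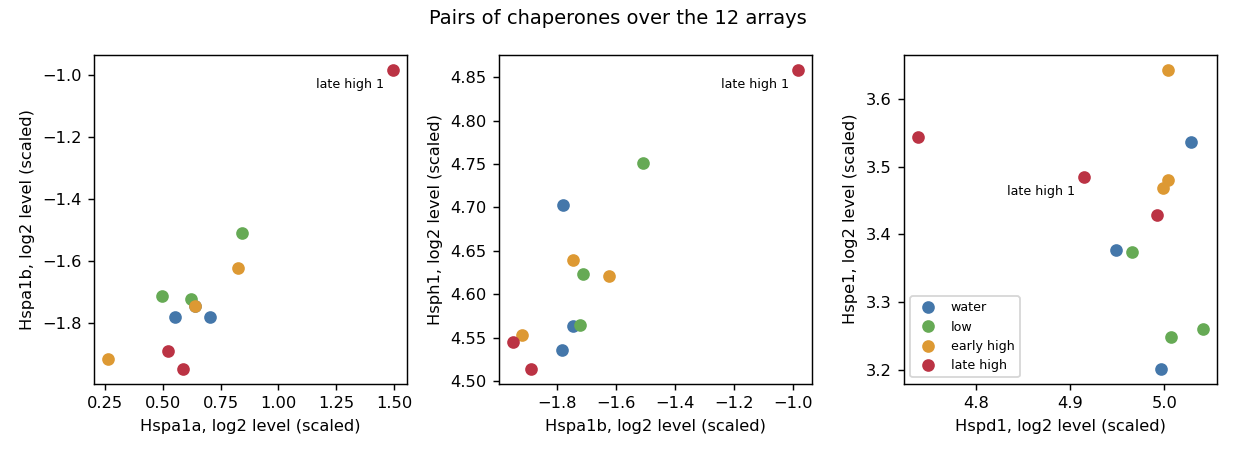
Scaled log2 levels of 3 pairs of chaperones over the 12 arrays, with 1 point per pool, coloured by group. Late high drinker pool 1 stands at the upper right for Hspa1a with Hspa1b (r = 0.939) and for Hspa1b with Hsph1 (r = 0.875), and Hspd1 with Hspe1 gives r = -0.310.

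Probes of 1 gene did not always agree in sign. Of 39 genes with more than 1 probe tested, 16 had probes on both sides of 0 for alcohol against water, and in 0 of them did opposite probes both pass the unadjusted threshold. For late high drinkers against water 19 did, with 1 gene, Dnajc9, whose opposite probes both passed, and for late against early high drinkers 23 did, with 1, Dnajc16.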

How the data were processed

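Total RNA of 12 hypothalamus pools was labeled with Cy3 and hybridized to 1-color Agilent arrays. The deposited scanner files give signal intensity on a linear scale, already background-subtracted by Agilent Feature Extraction, whose version is 10.5.1.1 per the file headers. Arrays had not been scaled to each other. A deposited value table of unscaled linear intensity served as an alternative.

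Here each intensity was taken to log2 and set against its array's 75th percentile over 43379 non-control spots. Outlier spots and spots with a signal under 2 times its error were set to missing, and spots of a probe were averaged. A probe was tested with values on over 50% of the arrays of each group compared. Groups came from the sample labels. Alcohol was compared with water, and the 4 groups in a second fit, with limma (version 3.58.1, R 4.3.3) and Benjamini-Hochberg adjustment over all probes tested. Intervals cover 95%, and pairs used 100000 resamples. The number of arrays limits the precision. On simulated data with 200 probes moved by 1 on the log2 scale, alcohol against water recovered 172 of the 200 among 32376 probes with 5 false calls. Among 31622 probes low and late high drinkers against water each recovered 157, with 16 and 15 false calls, high against low 163 with 11, and late against early high drinkers 147 with 9. The simulated noise was independent between arrays and held no slide differences, and only probes with a value on every array were moved. In the data a median of 31.7% of a probe's variance lay between slides, so these counts do not give what could be found here.

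The members and the gene lists were chosen with earlier results of these data known. One cell type marker list is not reported here. Named genes were 20 fixed chaperones, members past an unadjusted p of 0.05 for alcohol against water or the 4 groups, the brightest and dimmest of each family, and the largest differences of each contrast. Others named in late high drinker pool 1, and those past the unadjusted threshold in single contrasts, were named after their values were seen. Of the members, 67 matched a gene of the GRCm38.p6 table by accession, and 0 symbols changed. Probe positions are in mm9 as the files give them, and where in its transcript a probe lies was not analysed here. Same-numbered pools did not deviate together (median correlation of residuals -0.0010 over 18 pairs), so the numbers were not taken to pair pools. Alternatives were the background correction, the scaling, the value table, the filter on dim spots, slide and scan day as blocks, the replicate number as a block, the mean of all probes of a gene, the methods' t-test and leaving out each array.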

Additional observations from a re-analysis of the deposited data

Results flagged for a closer look

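Each member with values on the 9 alcohol arrays was searched for an array that stood apart from the rest, by the gap to its neighbor as a share of the whole range set against Dixon's 95% critical value. Of 70 members searched, 7 (10%) were past it, beside 10.7% of all 29746 probes with those values. Chance gives about 1 in 20.

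The inducible HSP70 genes stood out in late high drinker pool 1, Hspa1a at 1.497 with the next alcohol pool at 0.84 and Hspa1b at -0.98 with the next at -1.51. Low drinker pool 2 stood out for Dnajb13, at -3.99 with the next at -4.55, and for Hspa1l, at -3.84 with the next at -4.98. Neither of these is well above background on every array. Late high drinker pool 2 was high for Dnajc2, a J protein of the ribosome, at 1.33 with the next at 0.99, and low for Hspd1, at 4.74 with the next at 4.92. Late high drinker pool 3 was low for Hsp90ab1, at 5.58 with the next at 5.76.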

How the results depend on the processing

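With the replicate number as a block, 0 members passed the adjusted threshold in any comparison, and the counts past an unadjusted p of 0.05 were 0 for alcohol against water, 6 for the 4 groups, 3 for low, 1 for early high and 10 for late high drinkers against water, 8 for high against low and 6 for late against early high drinkers, beside 5.2%, 13.9%, 9.76%, 4.54%, 15.1%, 14.9% and 11.8% of all probes. The block changed no adjusted call. Over all alternatives those unadjusted counts ran from 0 to 4, 3 to 12, 0 to 7, 0 to 7, 4 to 14, 6 to 12 and 1 to 7, while the share of all probes past it ran from 1.63% to 9.04%, 7.84% to 25.1%, 2.99% to 20.4%, 2.39% to 8.12%, 7.77% to 18.9%, 9.02% to 25.6% and 4.79% to 16.5% in the same order. The lowest count for late high drinkers against water came with slide as a fixed block. Leaving out each pool in turn gave from 0 to 3 adjusted calls for the 4 groups, 0 to 2 for low drinkers against water and 0 to 4 for high against low drinkers, and 0 for the other comparisons. The calls came without low drinker pool 1, where 5.25%, 8.09% and 7.35% of all probes passed in these comparisons. Scan day as a block gave 1 for the 4 groups (Hspb7) and 4 for high against low drinkers (Dnajc22, Hspa1l, Hspb7 and Hspb9), beside 2.60% and 9.77% of all probes. Scan day parts slide 1 from the other slides, so this block sets high drinkers against low drinker pools 2 and 3 only. The cause was not tested.

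Slide or scan day as a fixed block leaves low drinker pool 1 as the alcohol pool beside water. Alcohol minus water then turned sign for Dnaja1 (0.094), Dnajb8 (-0.95), Dnajc24 (0.087), Dnajc27 (0.047), Dnajc6 (-0.072), Hspa8 (-0.062), Hspb7 (-0.15), Hspbap1 (-0.050) and Hspbp1 (-0.12), none of them called in the main comparison. Hspb7 also turned for low drinkers (-0.15), early high drinkers (-1.34 by slide, -1.37 by scan day) and late high drinkers (-1.66, -1.75) against water. The mean of all probes of a gene turned Dnaja4 (0.15), Dnajc24 (0.40) and Dnajc9 (0.026) for alcohol against water and Dnajc16 for late against early high drinkers (-0.089). Taken singly, the 3 Dnajc24 probes gave only -0.13 to 0.034 for alcohol against water. A mean over probes of unlike brightness shifts where a probe lacks a value, so the 0.40 is not read as a change of Dnajc24. Without the 2 arrays farthest from the median r was 0.724 for Hspa1a and Hspa1b, 0.0563 for Hspa1b and Dnajb1 and 0.513 for Hspa1b and Hsph1, none past the threshold, and r turned to 0.022 for Hspd1 and Hspe1 and to -0.033 for Hspa5 and Hsp90b1. With slide means removed, r of Hspa5 and Dnajb9 was -0.11. The count of members highest in late high drinker pool 1 ran from 22 to 28 over 5 alternatives chosen after seeing the data, beside 9.01% to 22.0% of all probes. The count of 28 came without scaling between arrays, beside 16.2% of all probes, and within slide 3, beside 22.0%. The widest intervals for alcohol against water were those of Dnajc22, Dnajb8, Hspb7 and Dnajc5g, and of these Dnajc22 and Dnajc5g were not well above background on every array.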
